A study of Mus musculus with 16 samples.

Results

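Aminoacyl-tRNA synthetases are the enzymes that charge each tRNA with its amino acid, and their mRNAs were followed here through an RNA immunoprecipitation from mouse muscle cells. The members were the synthetase genes named by symbol, 20 for the cytosolic set and 15 for the mitochondrial set, whose symbols end in 2. Of these 35 genes, 33 had a probe in the table used here, with 54 of the 25697 probes. No probe of Dars or Cars2 was among those used here. A probe was tested when it was detected above the negative control beads on at least 4 of the 16 arrays, which left 28 genes (17 cytosolic and 11 mitochondrial) and 43 probes. Cars, Yars, Hars2, Nars2 and Yars2 were too dim for testing. Yars was detected on 3 of the 16 arrays, Cars on 2 and the other three on 0.

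Cytosolic synthetases charge the tRNAs that feed ribosomes of the cytoplasm, and a separate set of nuclear genes encodes the enzymes imported into mitochondria. Gars and Kars are exceptions, since each encodes both forms, and they count as cytosolic here. In mammals several cytosolic enzymes (those of Eprs, Iars, Lars, Mars, Qars, Kars, Rars and Dars) sit together in the multi-synthetase complex, held by the scaffold proteins of Aimp1, Aimp2 and Eef1e1. Many synthetase genes are also targets of ATF4, the transcription factor of the amino acid response, through C/EBP-ATF response elements near their start sites.

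The cells were C2C12, an established line of mouse myoblasts, which form myotubes after serum withdrawal. Cytoplasmic extracts were made from cells in differentiation medium (DM, with 2% horse serum) or growth medium (GM, with 10% fetal bovine serum), and were incubated with beads carrying anti-MYF5 or control IgG. MYF5 is a myogenic regulator with a basic helix-loop-helix domain, and the series title ascribes an RNA-binding activity to it. The 4 groups were therefore MYF5 in DM, IgG in DM, MYF5 in GM and IgG in GM, with 4 arrays each and no genetic change in any of them. Input RNA of the extracts was not analysed here, and a difference between antibodies is therefore one of recovered RNA alone. The labels do not say whether the 4 replicates were separate cultures, and p-values then measure only the spread between these samples.

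Mean signals per array ran from 324 to 581, and 46.4% to 50.9% of probes were detected on each. Precision is limited by having 4 arrays per group. Correlations of normalized values across probes were 0.977 to 0.996 within groups and 0.841 to 0.972 between groups. Of 7 myoblast markers 6 had a probe, and 5 of them were detected on all arrays while Myf5 was detected on 1. Summed signals of the myotube markers were 68095 to 105876 on DM arrays, against 231 to 832 on GM arrays. Of 23 markers of other cell types with a probe, 13 were detected on 0 arrays, among them Adipoq, Fabp4 and Plin1 of adipocytes, Ptprc and Cd3e of blood cells and Pecam1 and Cdh5 of endothelium. Pparg and Syn1 were detected on 16, Kdr on 15, Alpl on 14, Hba-a1 on 11, Bglap on 10, Sp7 on 9, Tek on 8, Col2a1 on 6 and Krt8 on 2. Summed signals of the adipocyte list, set by Pparg, were 303 to 338 with anti-MYF5 and 159 to 194 with IgG in DM, and 833 to 1121 with anti-MYF5 and 467 to 682 with IgG in GM. Those of the blood list, set by the globin gene Hba-a1, were 67.6 to 70.2 with anti-MYF5 and 69.8 to 84.1 with IgG in DM, and 122 to 238 with anti-MYF5 and 462 to 1114 with IgG in GM. The part of these genes' source cells in the synthetase values was not tested. The 5 probes of Actb, the beta-actin gene, differed in how they moved. Between its brightest and dimmest probe the log2 gap was 2.60 ± 0.76 for MYF5 and 4.72 ± 0.81 for IgG in DM, and 3.93 ± 0.52 for MYF5 and 6.41 ± 1.54 for IgG in GM (SD, n = 4 each). The part of this gap in the synthetase values was not tested beyond the fit that carries it as a covariate. In GM the arrays numbered 4 deviated from their groups together (r = 0.61 across probes), and results that rest on them are given without them.

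Of the 13 cytosolic genes with a promoter window 4 carried the letters of a C/EBP-ATF element, and a few regions before the start sites are shown. RefSeq windows of 300 bases on GRCm38.p6, from 250 bases before the start base to 50 from it, were at hand for 26 members, 13 cytosolic and 13 mitochondrial. The letters TTGCATCA were searched on both strands. They were found in windows of 4 of the 13 cytosolic genes (30.8%) and 0 of the 13 mitochondrial genes. Among all genes with a window of this length 279 of 27025 held them (1.03%). Counting the start base as 0, the match began at position -112 in Aars, -15 in Tars, 3 in Yars, which was too dim for testing, and 7 in Iars. The looser pattern TGATGNAA includes every match of the first on its other strand. It was in windows of 5 of 13 cytosolic genes (38.5%), 0 of 13 mitochondrial ones and 1219 of all genes (4.51%). It added Gars, at position -30, and a second place in Aars. Kars, Sars, Mars and Eprs, whose windows held no match, were lower with anti-MYF5 in both media. So were Aars, Tars, Iars and Gars, whose windows held a match. Qars, without a match, was called in neither medium, and Rars had no window. Any relation of these letters to the recovered RNA was not tested. The 250 bases before the start are printed 5′ to 3′ on the gene's strand for Aars (chr8:111033592-111033841, plus strand), Tars (chr15:11399659-11399908, minus strand) and Gars (chr6:55037751-55038000, plus strand). Fars2 (chr13:36117393-36117642, plus strand), the mitochondrial member with the largest difference, is shown beside them as a window without a match. For Iars 30 bases around the match are shown (chr13:49682126-49682155, plus strand). Capitals mark the match, and a match of letters shows neither a bound site nor a cause.
Aars: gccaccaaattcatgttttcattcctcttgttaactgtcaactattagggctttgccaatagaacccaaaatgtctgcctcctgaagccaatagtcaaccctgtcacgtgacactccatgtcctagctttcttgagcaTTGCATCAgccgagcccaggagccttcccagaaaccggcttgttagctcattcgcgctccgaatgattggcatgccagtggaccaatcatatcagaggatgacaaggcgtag
Tars: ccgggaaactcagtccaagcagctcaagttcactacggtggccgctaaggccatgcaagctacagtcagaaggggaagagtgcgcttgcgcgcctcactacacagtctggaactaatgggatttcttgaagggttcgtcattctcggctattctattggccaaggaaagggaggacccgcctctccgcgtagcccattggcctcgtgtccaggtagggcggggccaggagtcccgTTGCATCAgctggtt
Gars: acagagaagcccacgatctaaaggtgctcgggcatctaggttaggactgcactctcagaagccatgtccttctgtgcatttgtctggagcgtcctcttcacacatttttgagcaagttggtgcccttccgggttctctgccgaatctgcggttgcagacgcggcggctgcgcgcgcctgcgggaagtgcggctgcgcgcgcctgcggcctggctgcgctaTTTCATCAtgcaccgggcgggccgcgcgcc
Fars2: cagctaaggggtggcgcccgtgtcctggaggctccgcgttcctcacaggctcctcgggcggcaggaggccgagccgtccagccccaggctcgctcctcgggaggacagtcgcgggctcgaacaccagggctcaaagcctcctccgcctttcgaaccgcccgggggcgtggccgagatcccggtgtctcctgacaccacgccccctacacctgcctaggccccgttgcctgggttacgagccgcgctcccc
Iars: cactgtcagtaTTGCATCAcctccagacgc

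In differentiation medium the comparison of MYF5 with IgG asks which RNAs anti-MYF5 recovered beyond the control antibody once cells were switched toward myotubes. Synthetase RNAs were lower with anti-MYF5. Of 17 cytosolic members 12 were lower and 0 higher, with a median log2 fold change of -0.68. Of 11 mitochondrial members 7 were lower and 0 higher, with a median of -0.38. Over all 9429 tested genes 26.6% were lower and 27.7% higher, with a median of 0.02. A gene stands by its brightest probe, and a call is an adjusted p under 0.05 in a limma model over all arrays, with Benjamini-Hochberg adjustment over all 13884 tested probes. Because the arrays were quantile normalized, each value stands relative to the rest of its array.

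Rars, the arginyl-tRNA synthetase of the complex, was lowest relative to IgG. Its normalized log2 signal was 8.64, 8.65, 8.74 and 9.05 on the MYF5 arrays, against 10.05, 9.92, 9.87 and 10.05 on the IgG arrays. Every MYF5 array lay below every IgG array, so a two-sided exact permutation test gave p = 0.0286, the least possible with 4 against 4. The fitted difference was 2.30-fold (log2 fold change -1.20, SE 0.13, adjusted p = 2.1e-07). In the deposited signals, before any scaling, Rars averaged 469 ± 68.0 with anti-MYF5 and 1073 ± 162 with IgG (SD, n = 4 each). Aars, which charges alanine tRNA and stands outside the complex, had 9.27, 8.87, 9.13 and 9.95 with anti-MYF5, against 10.41, 10.18, 10.79 and 10.47 with IgG. The groups did not overlap, although MYF5 array 4 stood well above its fellows, and the difference was 2.23-fold (log2 fold change -1.16, SE 0.18, adjusted p = 2.0e-05). Kars, the lysyl enzyme made for both compartments, had 9.10, 9.05, 9.23 and 9.30 with anti-MYF5, against 10.14, 10.19, 10.39 and 10.06 with IgG. The values were tight in both groups, and the difference was 2.04-fold (log2 fold change -1.03, SE 0.13, adjusted p = 8.3e-07).

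The remaining called cytosolic members in DM differed by less than 2-fold. They were Lars (-0.87), Vars (-0.84), Sars (-0.79), Gars (-0.74), Iars (-0.73), Tars (-0.68), Wars (-0.67), Mars (-0.64) and Eprs (-0.61), all on the log2 scale with SE of 0.10 to 0.16. They charge leucine, valine, serine, glycine, isoleucine, threonine, tryptophan and methionine tRNAs, and Eprs encodes the fused glutamyl-prolyl enzyme. Farsb, the beta subunit of the cytosolic phenylalanyl enzyme, was at -0.24 with adjusted p = 0.057, and its other probe, ILMN_2614825, was called at -0.25. Nars (-0.27, adjusted p = 0.18), Qars (-0.01) and Hars (-0.01) were not called, and Farsa, the alpha subunit, was detected on 0 of the 8 DM arrays.

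**Figure D1:**
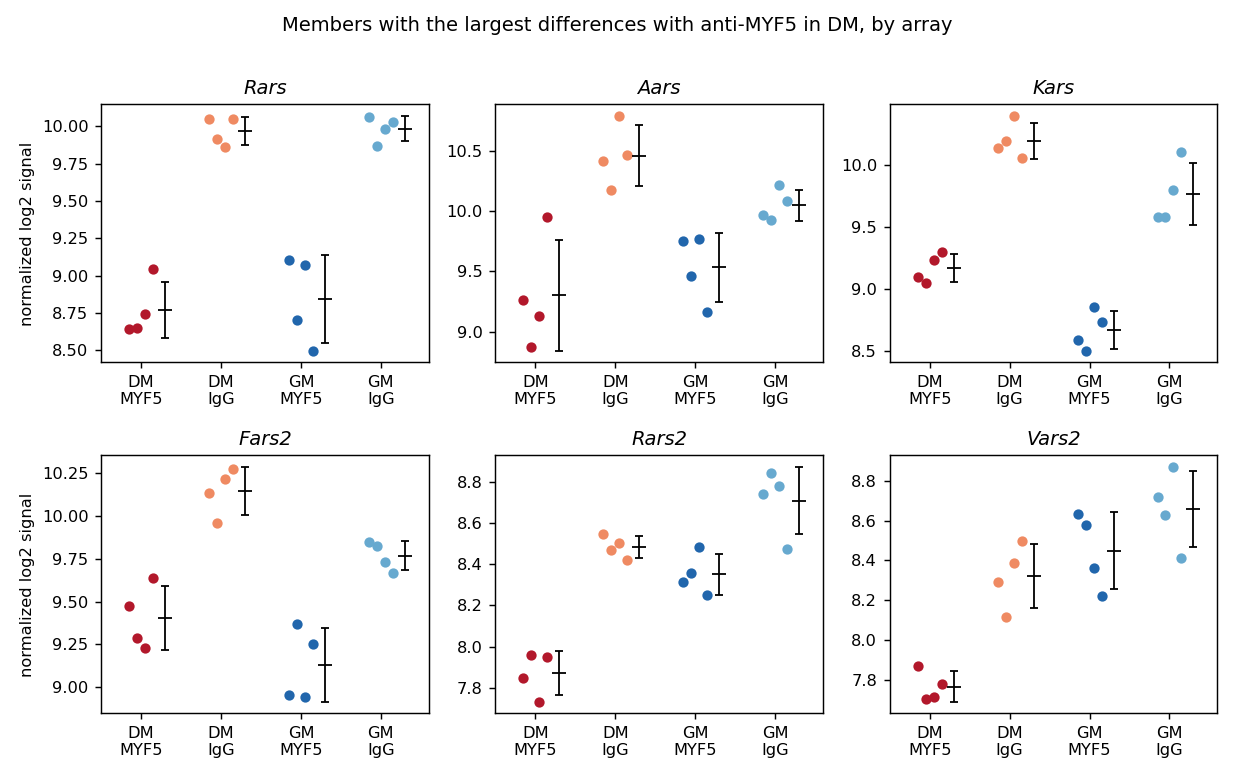
Normalized log2 signal of the 3 cytosolic (top) and 3 mitochondrial (bottom) members with the largest differences with anti-MYF5 in DM, one point per array, with the mean and SD of the 4 arrays as a bar beside each group. In DM all MYF5 points lie below all IgG points in each panel. Rars stands at 8.64 to 9.05 with anti-MYF5 in DM and at 9.87 to 10.05 with IgG.

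Fars2, the mitochondrial phenylalanyl-tRNA synthetase, led the mitochondrial set in DM. It had 9.47, 9.29, 9.23 and 9.64 with anti-MYF5, against 10.13, 9.96, 10.22 and 10.28 with IgG. The groups stood apart, with a 1.67-fold difference (log2 fold change -0.74, SE 0.12, adjusted p = 2.9e-05). Rars2, the mitochondrial arginyl enzyme, had 7.85, 7.96, 7.73 and 7.95 with anti-MYF5, against 8.55, 8.47, 8.50 and 8.42 with IgG (log2 fold change -0.61, SE 0.11, adjusted p = 7.4e-05). Its other probes, ILMN_2750676 and ILMN_2857581, were called in the same direction at -0.70 and -0.66. Vars2, for valine, had 7.87, 7.70, 7.71 and 7.78 with anti-MYF5, against 8.29, 8.12, 8.38 and 8.50 with IgG (log2 fold change -0.56, SE 0.13, adjusted p = 8.2e-04). No MYF5 array reached an IgG array in either gene. The Vars2 call was lost with no scaling and with the Actb gap as a covariate.

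The other called mitochondrial members were closer to the threshold. Mars2 (-0.44, adjusted p = 0.0498), Lars2 (-0.41, adjusted p = 0.011), Iars2 (-0.38, adjusted p = 0.045) and Ears2 (-0.34, adjusted p = 0.018) were lower, and the Mars2 groups overlapped. Over the 16 fits that leave out an array, Mars2 lost its call in 12 (-0.57 to -0.36) and Iars2 in 7 (-0.42 to -0.35), while Lars2 (-0.34) and Ears2 (-0.31) lost theirs without DM MYF5 replicate 2. Sars2 (-0.20), Pars2 (-0.15), Aars2 (-0.05) and Wars2 (0.16) were not called, although ILMN_2947286, a second probe of Pars2, was called at -0.39. The mitochondrial count fell to 3 without DM MYF5 replicate 2, and to 3 with the Actb gap as a covariate, where 11 cytosolic members were lower. It was 4 with median scaling and 2 with no scaling, while the cytosolic count in DM stayed within 1.5 times 12 under each alternative run.

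In growth medium the same comparison addresses dividing myoblasts, and there the cytosolic set was again lower with anti-MYF5 while most of the mitochondrial set was not called. Of 17 cytosolic members 13 were lower and 0 higher, with a median log2 fold change of -0.49. Among the 16 cytosolic members detected on all 16 arrays 12 were lower and 0 higher, with a median of -0.50. Farsa, left out there, passed the detection filter mostly through GM IgG arrays, where it was higher. Of all 7203 genes detected on all 16 arrays 1848 were lower and 2211 higher, with a median of 0.06. The 9 mitochondrial members detected on all 16 arrays had 2 lower and 1 higher, with a median of -0.07. Of 11 mitochondrial members 2 were lower and 1 higher, with a median of -0.06. Among all tested genes 22.4% were lower and 26.3% higher, with a median of 0.04. Whether the cytosolic and mitochondrial sets differ from each other was not tested. The GM split depends on the scaling, since 54.7% of called probes were higher in the fit used here, 73.9% with median scaling and 83.3% with no scaling. Those scalings moved the median of all genes to 0.19 and 0.32. Under them the cytosolic set had 4 lower and 1 higher, and 2 lower and 2 higher. Relative to the median of all genes the cytosolic median was -0.53 here and -0.45 under both, and the mitochondrial one was -0.10 here and -0.07 under both.

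Rars had 9.11, 8.70, 9.07 and 8.50 with anti-MYF5 in GM, against 10.06, 9.87, 9.98 and 10.03 with IgG. The MYF5 arrays were more spread than the IgG arrays but well below them, by 2.21-fold (log2 fold change -1.14, SE 0.13, adjusted p = 3.3e-07). A second Rars probe, ILMN_2591217, was at -1.31 in GM and -1.42 in DM. Kars had 8.59, 8.51, 8.85 and 8.73 with anti-MYF5, against 9.58, 9.58, 9.80 and 10.11 with IgG (log2 fold change -1.10, SE 0.13, adjusted p = 3.2e-07). Tars, the threonyl enzyme, had 7.71, 7.58, 7.42 and 6.94 with anti-MYF5, against 8.49, 8.15, 8.47 and 8.04 with IgG (log2 fold change -0.87, SE 0.15, adjusted p = 3.9e-05). The groups of Kars and of Tars did not overlap, and array 4 was the lowest of its group for Tars with either antibody. Rars and Kars kept their GM calls under each alternative run, including every array left out.

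The remaining called cytosolic members in GM were Sars (-0.66), Farsb (-0.60), Vars (-0.57), Lars (-0.54), Aars (-0.51), Iars (-0.49), Farsa (-0.49), Eprs (-0.45), Mars (-0.44) and Gars (-0.27), with SE of 0.10 to 0.18. Farsa was detected on 1 MYF5 array and 3 IgG arrays. Without both GM arrays numbered 4 the cytosolic count was 10, and Aars (-0.38), Mars (-0.22) and Gars (-0.27, adjusted p = 0.051) were the members that lost their calls. Over single arrays left out, Aars lost its call without GM MYF5 replicate 2 or 4 or GM IgG replicate 3 (-0.59 to -0.39), Gars without GM MYF5 replicate 2 or GM IgG replicate 2 or 3 (-0.31 to -0.22), Iars without GM MYF5 replicate 4 or GM IgG replicate 3 (-0.60 to -0.36), and Mars without GM MYF5 replicate 2 or GM IgG replicate 4 (-0.55 to -0.28). With the Actb gap as a covariate 8 cytosolic members were lower and 1 higher. Wars (0.26, adjusted p = 0.14), Hars (0.07), Nars (0.06) and Qars (-0.06) were not called.

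Of 11 mitochondrial members 3 passed in GM. Fars2 had 8.95, 9.37, 8.95 and 9.25 with anti-MYF5, against 9.85, 9.83, 9.73 and 9.67 with IgG (log2 fold change -0.64, SE 0.12, adjusted p = 1.6e-04). Rars2 had 8.31, 8.36, 8.48 and 8.25 with anti-MYF5, against 8.74, 8.84, 8.78 and 8.47 with IgG (log2 fold change -0.36, SE 0.11, adjusted p = 0.0093). The groups of Fars2 stood apart, while those of Rars2 met at 8.48 and 8.47, and with no scaling Rars2 turned to 0.0397 (adjusted p = 0.90). Fars2 lost its call with median scaling and with no scaling, and Rars2 also lost its call with median scaling. Iars2, the mitochondrial isoleucyl enzyme, was the member higher with anti-MYF5, at 7.59, 7.17, 7.65 and 7.24, against 6.59, 6.79, 7.39 and 7.10 with IgG (log2 fold change 0.44, SE 0.15, adjusted p = 0.020). Its IgG arrays were scattered and overlapped the MYF5 arrays, and the call was lost without GM MYF5 replicate 1 or 3 or GM IgG replicate 1 or 2, where the value ran from 0.32 to 0.58 over all arrays left out. Vars2 (-0.21), Pars2 (-0.16), Ears2 (-0.07), Sars2 (-0.06), Lars2 (-0.03), Aars2 (0.09), Wars2 (0.12) and Mars2 (0.16) were not called. Of these Sars2 was detected on 2 MYF5 and 2 IgG arrays, and Aars2 on 1 of each.

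**Figure D2:**
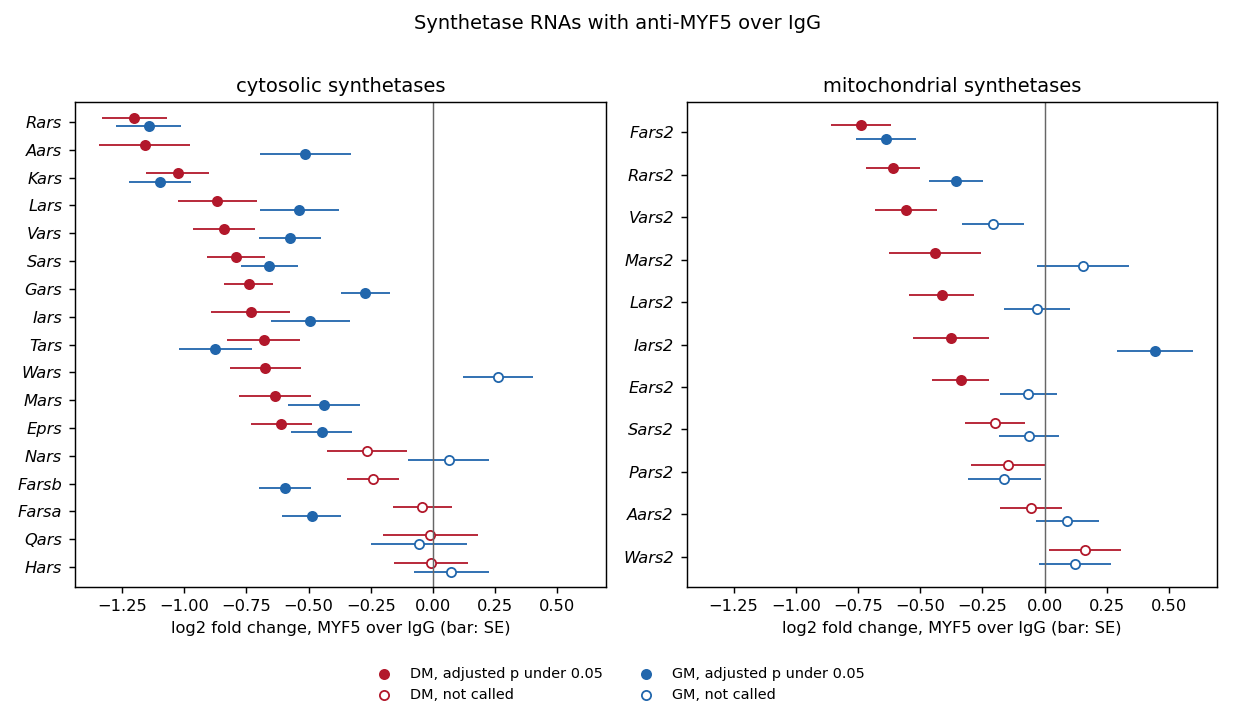
Log2 fold change of MYF5 over IgG (horizontal axis, bars are SE) for the 17 cytosolic members (left) and 11 mitochondrial members (right), in DM in red and GM in blue, with filled points for an adjusted p under 0.05. Cytosolic members run from -1.20 to -0.01 in DM and from -1.14 to 0.26 in GM, and Iars2 alone is filled on the right of 0.

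Members of the multi-synthetase complex and the other cytosolic enzymes were compared as lists. Of 7 tested complex enzymes 6 were lower in DM (median -0.73) and 6 in GM (median -0.49). Qars, the glutaminyl enzyme, was the exception in both media, at -0.01 in DM and -0.06 in GM. It had 10.98, 10.84, 11.01 and 10.85 with anti-MYF5 in DM, against 10.80, 10.93, 10.89 and 11.10 with IgG. The Qars groups overlapped fully in DM, and in GM both arrays numbered 4 stood high, at 11.33 with anti-MYF5 and 11.30 with IgG, against 10.29 to 10.68 on the other GM arrays. Of 10 cytosolic enzymes outside the complex 6 were lower in DM (median -0.68) and 7 in GM (median -0.50). Among all tested genes 26.6% were lower in DM and 22.4% in GM.

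By catalytic class, class I members (which include the arginyl, leucyl, isoleucyl and tryptophanyl enzymes) were lower for 13 of 15 in DM and 7 of 15 in GM, where 1 was higher. Class II members (which include the alanyl, lysyl, seryl and phenylalanyl enzymes) were lower for 6 of 13 in DM and 8 of 13 in GM. The class medians were -0.61 (class I) and -0.27 (class II) in DM, and -0.21 (class I) and -0.49 (class II) in GM. Mitochondrial members make up a larger part of class I than of class II. Among cytosolic members alone the medians were -0.70 (class I) and -0.68 (class II) in DM, and -0.47 and -0.51 in GM. Of these, 7 of 8 class I and 5 of 9 class II members were lower in DM, and 6 of 8 and 7 of 9 in GM. Over all tested genes 26.6% were lower and 27.7% higher in DM, and 22.4% lower and 26.3% higher in GM. Farsa, Aars2 and Sars2, detected on 4, 5 and 9 of the 16 arrays, are class II and were not called in DM. Every tested class I member was detected on all 16 arrays. The class I count in DM includes Mars2 and Iars2, whose calls were lost in 12 and 7 of the 16 fits that leave out an array. No test set the classes against each other.

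Proteins that work beside the synthetases were listed as well. Of 24 listed scaffold, editing and tRNA-maturation genes 19 were tested. With anti-MYF5 7 were lower and 1 higher in DM (median -0.29), and 6 were lower and 2 higher in GM (median 0.05), set against 26.6% lower and 27.7% higher in DM, and 22.4% lower and 26.3% higher in GM, among all tested genes. Yrdc, which makes the threonylcarbamoyl modification of tRNA, was higher by 1.65 in DM and 1.55 in GM (SE 0.19 each). Aarsd1, an editing protein that removes serine from mischarged alanine tRNA, was at -1.26 in DM and -1.27 in GM (SE 0.13 each). Aimp2, a scaffold of the complex, was at -1.11 in DM and -1.26 in GM (SE 0.14 each), so both Aimp2 and most complex enzymes were lower. The other scaffold proteins fall outside the naming rule and are given to complete the complex. Aimp1 was at -0.67 in DM and -1.05 in GM (SE 0.11 each, called in both), and Eef1e1 at 0.34 in DM and -0.23 in GM (adjusted p = 0.13 and 0.33).

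Of 32 listed amino acid response genes 26 were tested. With anti-MYF5 10 were higher and 8 lower in DM (median 0.03), and 8 were higher and 5 lower in GM (median 0.21). They stand against the same shares of all tested genes (27.7% higher and 26.6% lower in DM, 26.3% and 22.4% in GM). Asns, asparagine synthetase, was lower by the same comparison, at -1.13 in DM (SE 0.13) and -0.66 in GM (SE 0.13). Ddit4, an inhibitor of mTORC1 signalling, and Eif2ak3, the kinase PERK, were higher in DM by 1.58 and 1.26. In GM Sesn2, a leucine sensor, was higher by 1.13, while Nupr1 (-1.48), a stress-induced chromatin protein, and Ddit3 (-1.18), the transcription factor CHOP, were lower.

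The DM minus GM difference asks whether recovery with anti-MYF5 over IgG itself changed with the medium. Among the 17 cytosolic members 1 was lower (Wars) and among the 11 mitochondrial members 1 was lower (Iars2), with 0 higher. The medians were -0.16 and -0.25, and over all tested genes 3.31% were lower and 2.46% higher, with a median of 0.01. The share of higher among all called probes was 40.6%, and it was 7.80% with median scaling, 3.31% with no scaling and 51.6% with cyclic loess. The cytosolic count was 2 without GM MYF5 replicate 2, and 3 without GM IgG replicate 4 or DM MYF5 replicate 4. Of the other members Gars came closest, at -0.47 (SE 0.14, adjusted p = 0.052).

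Wars, the tryptophanyl-tRNA synthetase, which interferon also induces, differed between media in this contrast. In DM it had 8.09, 7.94, 7.83 and 8.32 with anti-MYF5, against 8.76, 8.43, 8.94 and 8.76 with IgG. In GM it had 9.02, 8.74, 8.90 and 8.54 with anti-MYF5, against 8.63, 8.30, 8.74 and 8.48 with IgG. The DM groups stood apart and the GM groups overlapped, and the difference between the contrasts was -0.94 (SE 0.20, adjusted p = 0.0096), with a range of -1.04 to -0.85 over all arrays left out. Its dimmer probes ILMN_3156343, ILMN_3077377 and ILMN_2445477 were at -0.76, -0.60 and -0.21 and were not called (adjusted p = 0.093, 0.17 and 0.64), and the mean over the 4 probes lost the call.

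Iars2 was lower with anti-MYF5 in DM and higher in GM. In DM it had 6.97, 6.91, 6.95 and 7.11 with anti-MYF5, against 7.45, 7.37, 7.26 and 7.36 with IgG. These groups were tight and apart, unlike those in GM given above, and the difference between the contrasts was -0.82 (SE 0.22, adjusted p = 0.030). The call was lost in 8 of the 16 fits that leave out an array, namely GM MYF5 replicate 1 or 3, GM IgG replicate 1 or 2, DM MYF5 replicate 1, 2 or 3, or DM IgG replicate 1, with values of -0.96 to -0.69 over all 16 fits. Without GM MYF5 replicate 4 the mitochondrial count was 2. Leaving out both GM arrays numbered 4 gave 1 higher and 2 lower cytosolic members (Farsa at 0.51, and Gars at -0.47 beside Wars) and 2 lower mitochondrial ones (Mars2 at -0.63 beside Iars2). Farsa was detected on 0 DM arrays and entered the tests through GM arrays, mostly IgG. Its higher value therefore rests on its GM signals and shows no gain in DM.

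**Figure D3:**
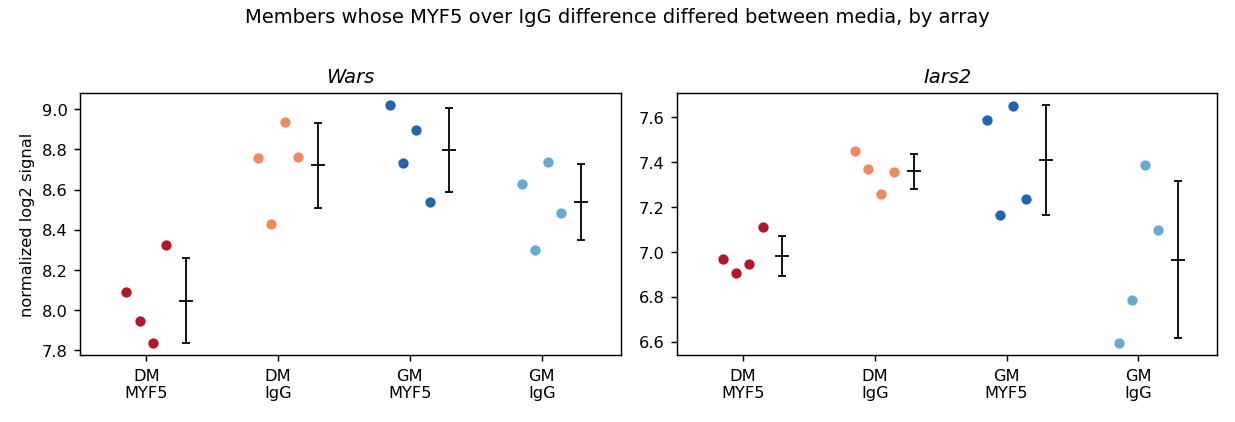
Normalized log2 signal of Wars and Iars2 on each array, with the mean and SD of 4 arrays as a bar beside each group. In DM the MYF5 points lie below the IgG points for both genes, while in GM the groups overlap, with Wars means of 8.80 (MYF5) and 8.54 (IgG) and Iars2 means of 7.41 (MYF5) and 6.97 (IgG).

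The DM over GM comparison within each antibody asks how the recovered synthetase RNAs changed as the cells differentiated, and it shares its arrays with the comparisons above. In bulk RNA, fewer cells of a type and less RNA per cell cannot be told apart. With IgG 5 of 17 cytosolic members were higher in DM and 2 lower (median 0.24), and 3 of 11 mitochondrial members were higher and 3 lower (median 0.01). Among all tested genes 29.5% were higher and 34% lower, with a median of -0.06. The share of higher among called probes was 45.6%, and it was 60.1% with median scaling and 69.1% with no scaling. With anti-MYF5 4 cytosolic members were higher in DM and 4 lower (median -0.06), and 0 mitochondrial members were higher and 5 lower (median -0.33). There 28.9% of all tested genes were higher and 32.7% lower, with a median of -0.06. Without Farsa, whose direction the detection filter fixed, 16 cytosolic members had 3 lower with anti-MYF5 and 1 with IgG.

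Lars and Eprs, both of the complex, were the members most above GM in DM. With IgG, Lars had 9.82, 9.26, 9.87 and 9.37 in DM, against 8.87, 8.51, 8.93 and 8.57 in GM (log2 fold change 0.86, SE 0.16, adjusted p = 7.0e-05). With anti-MYF5 Lars had 8.82, 8.49, 8.56 and 8.98 in DM, against 8.41, 8.02, 8.33 and 7.96 in GM (log2 fold change 0.53, SE 0.16, adjusted p = 0.0062). For Lars the groups did not overlap with either antibody, and its call with anti-MYF5 was lost with median scaling and with no scaling. Eprs with IgG had 8.29, 8.26, 8.23 and 8.09 in DM, against 7.53, 7.14, 7.53 and 7.57 in GM (log2 fold change 0.78, SE 0.12, adjusted p = 1.2e-05). With anti-MYF5 it had 7.59, 7.48, 7.53 and 7.85 in DM, against 7.03, 6.88, 7.07 and 7.01 in GM (log2 fold change 0.61, SE 0.12, adjusted p = 1.9e-04). A second Eprs probe, ILMN_3148398, was at 0.44 in both and was not called.

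Nars, for asparagine, was higher in DM with IgG, at 9.49, 9.24, 9.67 and 9.32 in DM, against 9.08, 8.78, 9.08 and 8.43 in GM (log2 fold change 0.59, SE 0.16, adjusted p = 0.0034). With anti-MYF5 Nars was at 0.26 (adjusted p = 0.17). Kars was higher with both antibodies, by 0.50 with anti-MYF5 (SE 0.13, adjusted p = 0.0017) and 0.43 with IgG (SE 0.13, adjusted p = 0.0053). Its arrays are listed above. With anti-MYF5 every DM array of Kars lay above every GM array. With IgG the groups overlapped, since DM array 4 was at 10.06 and GM array 4 at 10.11. The Kars call with IgG was lost with the Actb gap as a covariate. Its call with anti-MYF5 was lost with median scaling and with no scaling. Gars was higher with IgG (0.41, adjusted p = 0.0012) and Tars with anti-MYF5 (0.47, adjusted p = 0.0089). The Gars value turned to -0.0219 in the deposited z-scores and lost its call with median scaling, and Tars lost its call with median scaling, with no scaling and with the mean over its probes.

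Vars, the cytosolic valyl enzyme, was lower in DM with both antibodies. With anti-MYF5 it had 8.57, 8.32, 8.47 and 8.54 in DM, against 9.22, 9.12, 9.57 and 9.39 in GM (log2 fold change -0.85, SE 0.12, adjusted p = 4.4e-06). With IgG it had 9.42, 9.20, 9.49 and 9.15 in DM, against 9.83, 9.84, 9.75 and 10.18 in GM (log2 fold change -0.58, SE 0.12, adjusted p = 3.4e-04). The DM and GM values of Vars stood apart with each antibody. Farsa was detected on 0 DM arrays and entered the tests through GM arrays, so that a lower DM value was fixed by the filter. Its bounds were at least 1.43-fold lower in DM with IgG and at least 1.03-fold lower with anti-MYF5. Its dim signals were 4.73, 4.46, 4.50 and 4.49 in DM with IgG, against 5.56, 5.38, 5.28 and 4.96 in GM. Wars was lower in DM with anti-MYF5 (-0.75, SE 0.14, adjusted p = 1.0e-04) and was not called with IgG (0.19, adjusted p = 0.27). Hars, for histidine, had 4.95, 5.30, 5.42 and 5.39 in DM with anti-MYF5, against 5.60, 5.38, 5.95 and 5.54 in GM (log2 fold change -0.35, SE 0.15, adjusted p = 0.046), and these groups overlapped. The Hars call was lost in 11 of the 16 fits that leave out an array (-0.43 to -0.25), and with no background correction, cyclic loess, the z-scores and no filter on dim probes.

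Among mitochondrial members Vars2 was lower in DM with both antibodies, at -0.68 with anti-MYF5 (SE 0.13, adjusted p = 7.5e-05) and -0.33 with IgG (SE 0.13, adjusted p = 0.025). Its call with IgG was lost with median scaling, no scaling, the deposited z-scores and the Actb gap as a covariate. Lars2, for leucine, was higher with IgG, at 7.84, 7.72, 7.83 and 7.75 in DM, against 7.31, 7.18, 7.35 and 7.01 in GM (log2 fold change 0.58, SE 0.13, adjusted p = 6.8e-04). The Lars2 groups stood apart. Iars2 (0.39, adjusted p = 0.031) and Fars2 (0.38, adjusted p = 0.0099) were also higher with IgG. Pars2, for proline, was lower with IgG at 6.00, 5.89, 6.06 and 5.77 in DM, against 6.14, 6.02, 6.31 and 6.80 in GM (log2 fold change -0.38, SE 0.15, adjusted p = 0.029). Wars2 had 6.02, 5.86, 6.25 and 5.97 in DM with IgG, against 6.52, 6.56, 6.55 and 5.93 in GM (log2 fold change -0.37, SE 0.14, adjusted p = 0.032). Pars2 and Wars2 overlapped between media, Pars2 through GM IgG array 2 and Wars2 through GM IgG array 4, and with no scaling both turned positive (0.0513 and 0.0285). Without both GM arrays numbered 4 Pars2 was at -0.22 and not called. Of the calls with IgG, those of Wars2, Iars2, Vars2 and Pars2 were lost in 6, 5, 4 and 3 of the 16 fits that leave out an array, with values of -0.52 to -0.31, 0.27 to 0.53, -0.42 to -0.26 and -0.48 to -0.22.

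With anti-MYF5, Mars2, for methionine, had 6.62, 6.74, 6.67 and 6.76 in DM, against 7.34, 7.27, 7.66 and 6.67 in GM (log2 fold change -0.54, SE 0.18, adjusted p = 0.016). The GM array at 6.67 lay among the DM values and the other GM arrays far above them. Rars2 was lower in DM with anti-MYF5 (-0.48, SE 0.11, adjusted p = 6.9e-04), as were Iars2 (-0.43, adjusted p = 0.020) and Pars2 (-0.37, adjusted p = 0.036). The Pars2 call was lost in 5 and the Iars2 call in 3 of those 16 fits (-0.44 to -0.31 and -0.51 to -0.35), and the Mars2 call without GM MYF5 replicate 3 (-0.39). The mitochondrial count with anti-MYF5 was 3 without GM MYF5 replicate 1 and 2 without GM MYF5 replicate 3. With IgG the mitochondrial count of 6 was 3 with the Actb gap as a covariate, 3 without GM IgG replicate 1 or DM IgG replicate 1 or 4, and 2 without DM IgG replicate 2. Leaving out both GM arrays numbered 4 raised the cytosolic count with IgG to 11, 9 higher and 2 lower.

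**Figure D4:**
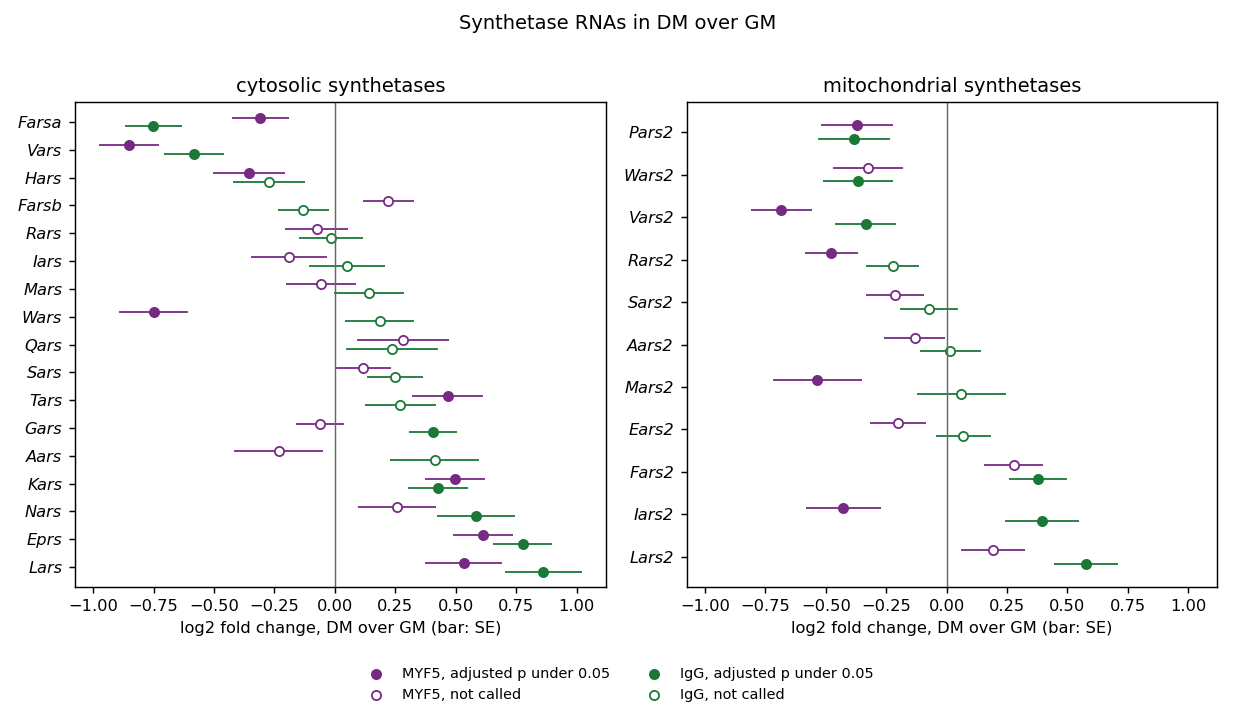
Log2 fold change of DM over GM (horizontal axis, bars are SE) for cytosolic (left) and mitochondrial (right) members, with anti-MYF5 in purple and IgG in green, and filled points for an adjusted p under 0.05. Lars and Eprs lie on the right with both antibodies (0.53 to 0.86), Vars on the left, and Wars and Iars2 on opposite sides of 0.

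The related lists were also compared between media, where all tested genes had the shares given above (28.9% higher and 32.7% lower with anti-MYF5, 29.5% and 34% with IgG). Of the 19 tested partner genes 11 were lower and 4 higher in DM with anti-MYF5 (median -0.42), and 9 lower and 3 higher with IgG (median -0.13). Nsun2, a tRNA methyltransferase (-1.07), Yrdc (-0.95) and Gatc, a subunit of the mitochondrial glutamyl-tRNA amidotransferase (-0.85), led with anti-MYF5, and Yrdc (-1.05), Eef1e1 (-1.02) and Nsun2 (-0.73) with IgG. Of 26 amino acid response genes 14 were lower and 7 higher with anti-MYF5 (median -0.37), and 15 lower and 5 higher with IgG (median -0.47). Bcat1, a branched-chain aminotransferase, was at -2.02 with anti-MYF5 and -2.00 with IgG. Nupr1 was higher by 1.89 with anti-MYF5 and 1.45 with IgG, and Slc7a11, a cystine transporter subunit, was at -1.35 with anti-MYF5 and -1.30 with IgG. The value of Eif2ak3 differed between the antibodies, since its DM minus GM difference of MYF5 over IgG was 1.07 (SE 0.20, adjusted p = 0.0035), the sole call of that kind in either list.

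Per array, the members were summed up by their median after centring each gene on its mean. Differences between these medians need not equal the median log2 fold changes given above. The cytosolic median was -0.25 ± 0.11 for MYF5 and 0.39 ± 0.10 for IgG in DM, and -0.26 ± 0.20 for MYF5 and 0.18 ± 0.06 for IgG in GM (SD, n = 4 each). The mitochondrial median was -0.22 ± 0.06 for MYF5 and 0.12 ± 0.06 for IgG in DM, and 0.05 ± 0.13 for MYF5 and 0.13 ± 0.11 for IgG in GM. Cytosolic arrays of the antibodies did not overlap in either medium, while mitochondrial arrays overlapped in GM.

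**Figure D5:**
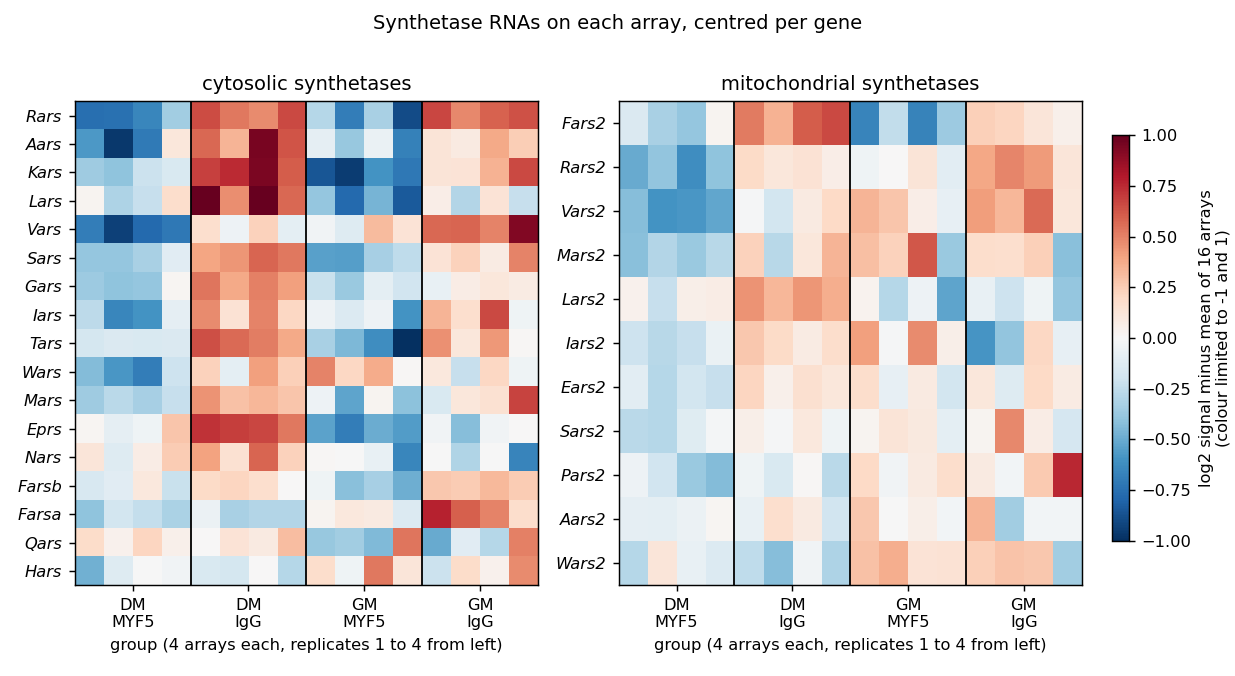
Normalized log2 signal of each tested member on each of the 16 arrays, minus the gene's mean over all arrays, with colours limited to -1 and 1, and cytosolic members on the left and mitochondrial ones on the right. Blue cells (below the gene's mean) fill most of the DM MYF5 columns in both sets, and in GM the MYF5 columns are blue for most cytosolic rows.

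Several probes of one gene went different ways. In GM Vars had 2 probes lower with anti-MYF5, at -0.57 and -0.59 (ILMN_2928160), and a dim one higher. That probe, ILMN_2508519, had 5.70, 5.26, 5.29 and 5.54 with anti-MYF5, against 4.32, 4.68, 4.83 and 4.62 with IgG (log2 fold change 0.84, SE 0.14, adjusted p = 4.0e-05). It was detected on 4 MYF5 arrays and 1 IgG array, and its DM minus GM difference was -0.68 (adjusted p = 0.047). ILMN_2712900 of Sars was higher in DM with IgG (0.74) while the brightest Sars probe was not called (0.25), and ILMN_2828687 of Mars was lower (-0.34) while the brightest Mars probe was not called (0.14). The second Eprs probe, ILMN_3148398, was at 0.07 for MYF5 over IgG in both media and was not called. With the mean over the probes of a gene, Eprs lost its MYF5 over IgG call in both media, and Vars lost its call in GM. Counted over all 43 tested member probes, 31 were lower and 0 higher with anti-MYF5 in DM, and 24 lower and 2 higher in GM. Over all tested probes 26.2% were lower and 26.8% higher in DM, and 22.1% lower and 26.7% higher in GM.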

How the data were processed

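RNA precipitated from C2C12 cytoplasmic extracts was copied and amplified with oligo-dT priming and given a biotin label, per the labels' protocols, and measured on 16 Illumina mouse bead arrays. Each of 25697 probes has, per the file headers, an intensity and a detection p-value per array in the deposited table, with no normalization between arrays. GenomeStudio 2011.1 made these values, per the submitters' processing notes, and the genome build behind them is not given in the sources used here. The deposited series values are a score that equals the z-score of the log10 signal of each array, to within 5.0e-10, with column medians of -0.55 to -0.51. They were used as an alternative.

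Signals were background-corrected with limma's normal-exponential fit, which takes the control distribution from the detection p-values, with an offset of 16, and were quantile normalized and log2 transformed (limma 3.58.1, R 4.3.3). A probe entered the tests if its detection p was below 0.05 on 4 or more of the 16 arrays, giving 13884 probes for 9429 genes. One model with the 4 group means (lmFit, eBayes with an intensity trend, 12 residual degrees of freedom) gave the 5 comparisons, with Benjamini-Hochberg adjustment over all tested probes at 0.05. The fit was also run on simulated data with planted changes and independent noise, a setting without arrays that deviate together. Groups came from the sample titles, 0 columns belonged to no sample, and 0 pairs of arrays held identical values.

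Platform symbols were brought up to date by Entrez identifier (23962 probes) or accession (9), while 7 stayed as annotated. Thus 23978 probes had 1 symbol, 0 several and 1719 none. The brightest probe by mean log2 signal represents a gene. Where a probe was detected on 0 arrays of the dimmer group, the fold is a bound, taken against the lowest signal detected on each array or the probe's own where that is higher.

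The members, the lists of related genes and the alternatives were chosen with earlier results of these data known. By the naming rule, values are given array by array for up to 3 called members in each direction and set, and up to 3 called genes are named from each related list, or all where at most 5 were called. Protein sequence features and their relation to the changes were not used here, because protein sequences were not among the reference tables. Figures were drawn with matplotlib.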

Additional observations from a re-analysis of the deposited data

Results flagged for a closer look

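In 9 of 112 groups of 4 arrays checked, 1 array stood apart from its fellows beyond Dixon's 95% critical value (chance gives about 1 in 20). In GM these were the arrays numbered 4 for most genes. With anti-MYF5 in GM, array 4 was low for Iars (9.67, others 10.13 to 10.22) and Nars (8.43, others 9.01 to 9.10) and high for Qars (11.33, others 10.36 to 10.45). With IgG in GM, array 4 was low for Mars2 (6.62, others 7.21 to 7.27) and Wars2 (5.93, others 6.52 to 6.56), and array 2 was low for Eprs (7.14, others 7.53 to 7.57). In DM, MYF5 array 4 was high for Gars (12.97, others 12.54 to 12.58) and MYF5 array 2 low for Lars2 (7.16, others 7.43 to 7.46). With IgG in DM, array 1 was high for Farsa (4.73, others 4.46 to 4.50), which was detected on 0 arrays there.

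The change with anti-MYF5 over IgG differed between media, by the test of that difference, for Wars (-0.94, DM minus GM), Iars2 (-0.82) and the dim Vars probe ILMN_2508519 (-0.68).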

How the results depend on the processing

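The number of arrays and the dim signals of Farsa, Aars2, Sars2 and Hars limit what could be seen. The leading members (Rars and Kars in both media, Aars in DM) kept their calls for MYF5 over IgG under each alternative run. In GM, the cytosolic count of 13 was 5 with median scaling, 4 with no scaling and 9 to 13 over arrays left out in turn. The mitochondrial count of 3 was 1 with median scaling and 2 to 3 over arrays left out. Neither lower call of that set, Fars2 or Rars2, was kept with median scaling or with no scaling. The higher call, Iars2, was kept under both. In DM, the cytosolic count of 12 was 12 to 13 over arrays left out. The mitochondrial count of 7 was 4 with median scaling, 2 with no scaling, 3 with the Actb gap, and 3 to 7 over arrays left out. For the DM minus GM difference, the cytosolic count of 1 was 2 with no background correction, offset 50, no scaling, the replicate block or the Actb gap, and 1 to 3 over arrays left out. The mitochondrial count of 1 was 2 with the z-scores, 0 with no filter on dim probes and 0 to 2 over arrays left out. For DM over GM with IgG, the cytosolic count of 7 was 6 to 10 over arrays left out. The mitochondrial count of 6 was 3 with median scaling, no scaling, no filter, the Actb gap or the arrays of the compared groups alone, and 2 to 6 over arrays left out. For DM over GM with anti-MYF5, the cytosolic count of 8 was 5 with median scaling or no scaling and 6 to 9 over arrays left out. The mitochondrial count of 5 was 3 with no scaling or the z-scores and 2 to 7 over arrays left out. Leaving out both GM arrays numbered 4, chosen after seeing the data, gave 3 cytosolic and 2 mitochondrial calls for the DM minus GM difference and 11 cytosolic calls for DM over GM with IgG. The 3 cytosolic calls include Farsa, which was detected on 0 DM arrays. Directions turned for Rars2 in GM with no scaling (0.0397), and in DM over GM with IgG for Gars in the z-scores (-0.0219), Pars2 with no scaling (0.0513) and Wars2 with no scaling (0.0285). The cause was not tested. Deviations of same-numbered arrays of the antibodies correlated at r = 0.02 to 0.42 in DM and 0.01 to 0.61 in GM, and not every pair passed 0.1, so the block stayed an alternative and whether the numbers mark shared extracts is not known. An array's best partner bore its own number for 3 of 4 in DM and 2 of 4 in GM. The replicate block gave 13 cytosolic calls in each medium for MYF5 over IgG, and 3 (GM) and 7 (DM) mitochondrial ones, and it called Farsb in DM (adjusted p = 0.039) and Gars in the DM minus GM difference (adjusted p = 0.036). Across all members and alternatives, 1 value turned and 55 lost a call in GM, and 0 turned and 43 lost a call in DM. The fit on the arrays of the compared groups gives no value for the difference between media, and the planned protein features were not run.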
